A study of Mus musculus with 8 samples.

Results

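The 8 enzymes below, which supply the reducing agent NADPH in the cytosol or stand in the same pathway, were followed in mouse embryonic fibroblasts (MEFs) with and without Cebpg. They are G6pdx, Pgls, Pgd, Rpia, Tkt and Taldo1 of the pentose phosphate pathway, with the malic enzyme Me1 and the isocitrate dehydrogenase Idh1. Members were chosen by name, and every probe set that the platform annotation ties to a single one of them was used: 14 probe sets for 7 of the 8 genes, out of 18193 genes on the array. G6pdx had no probe set named for it in the annotation used here, and its expression was not analysed here.

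The study compared 4 WT samples with 4 Cebpg-/- samples, that is, cells that keep Cebpg and cells that lack both copies; the gene encodes the basic leucine zipper factor C/EBPγ. All were primary fibroblast cultures of the C57BL/6 strain from E13.5 embryos, grown with 10% serum, plated at passage 3 and harvested at 48 hours, with 1 Affymetrix array per sample. The labels call the samples biological replicates and do not say whether each came from its own embryo, so the p-values reflect spread among 8 cultures, which may be partly technical. Levels are given as log2 RMA values, where a difference of 1 is a doubling, and the number of arrays limits the precision.

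As background, NADPH is the electron donor for reducing glutathione and thioredoxin and for building fatty acids, sterols and proline. In the oxidative branch of the pentose phosphate pathway, G6pdx and Pgd each make NADPH and Pgls opens the lactone between them. Rpia, Tkt and Taldo1 form the non-oxidative branch, which makes ribose 5-phosphate and returns carbon to glycolysis. Me1 and Idh1 make NADPH in the cytosol from malate and isocitrate. Several of these genes are textbook targets of NRF2, the antioxidant response factor, and Me1 and Idh1 are also known to respond to SREBP lipid regulators.

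In Cebpg-/- cells 3 of the 7 measured members rose (Taldo1, Pgd and Me1), 1 fell (Idh1), and 3 did not pass the test (Rpia, Pgls and Tkt). A gene was called when its limma p, adjusted by Benjamini-Hochberg over all 18193 genes, was under 0.05; by that rule 8.62% of all genes were higher and 3.99% lower. The median change was 0.25 over the 7 members and 0.00 over all genes, on the log2 scale. Among all called genes 68.4% were higher, which became 56.7% after quantile normalization and 78.9% after subtracting array medians. All 4 Cebpg-/- values lay above all 4 WT values for 3 members (Taldo1, Pgd and Me1), where 12.8% of all genes were so separated, and for no member did they all lie below, where 6.74% of genes did.

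**Figure D1:**
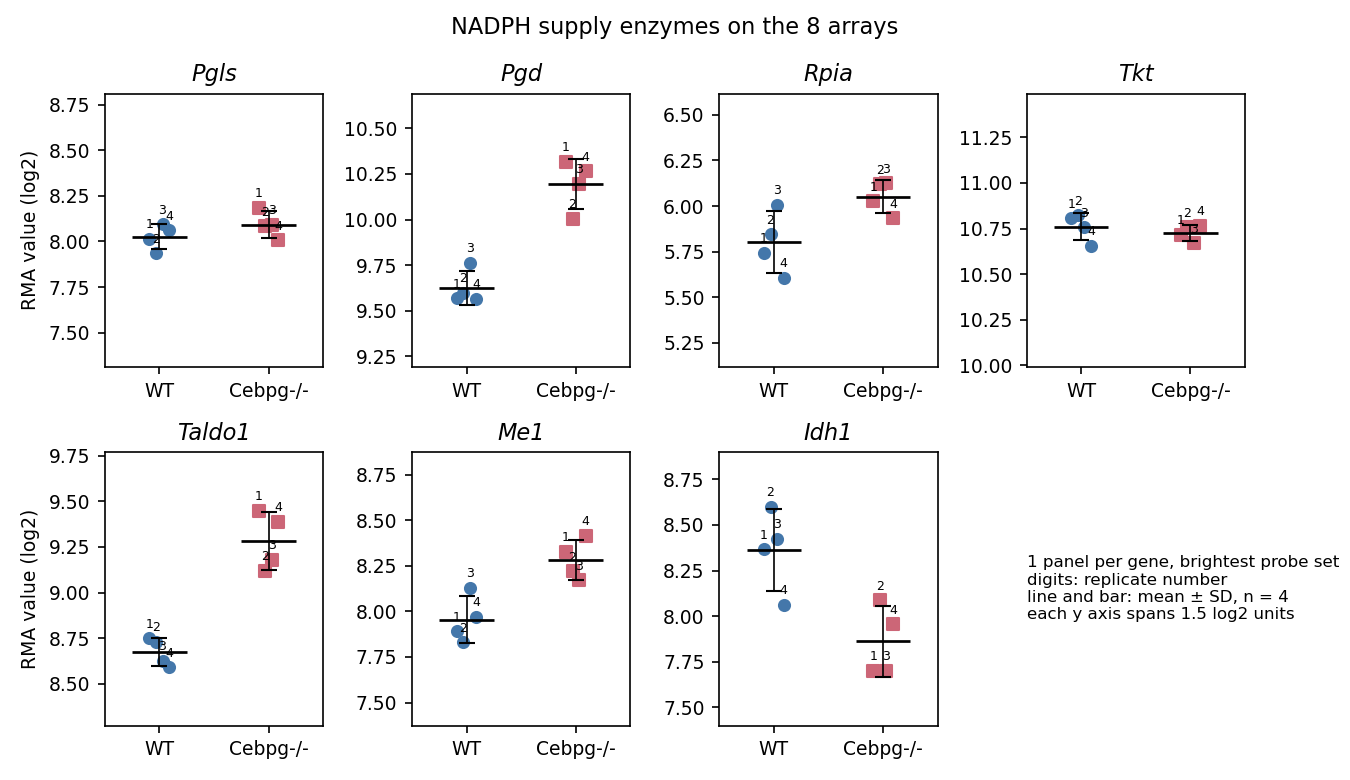
RMA value (log2) of each measured member on the 4 WT (circles) and 4 Cebpg-/- (squares) arrays, by its brightest probe set, with mean ± SD. Pgd, Taldo1 and Me1 are higher on every Cebpg-/- array than on any WT array, Idh1 is lower with overlap at WT replicate 4 and Cebpg-/- replicate 2, and the groups overlap for Rpia, Tkt and Pgls.

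Pgd encodes 6-phosphogluconate dehydrogenase, the second NADPH-making step of the oxidative branch. Its brightest probe set read 9.57, 9.60, 9.76 and 9.57 on WT replicates 1 to 4 and 10.32, 10.01, 10.20 and 10.27 on Cebpg-/- replicates 1 to 4. The groups did not overlap, and the lowest Cebpg-/- value belonged to replicate 2. The means were 9.62 ± 0.09 and 10.20 ± 0.14 (SD, n = 4), a 1.49-fold rise with a 95% interval of 1.31 to 1.68 (limma, adjusted p = 0.00260). The other 3 Pgd probe sets rose too, by 0.58, 0.54 and 0.73 on the log2 scale. The largest of these changes was that of the probe set with the suffix a_at, which marks probes shared by transcripts of the same gene, from 8.35 ± 0.09 to 9.08 ± 0.12. The others carry the suffix x_at, which marks probes that can also bind other sequences. Over all 14 member probe sets 7 were called higher and 2 lower, where 4.82% and 2.78% of all 45037 probe sets were (limma, adjusted over all probe sets).

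**Figure D2:**
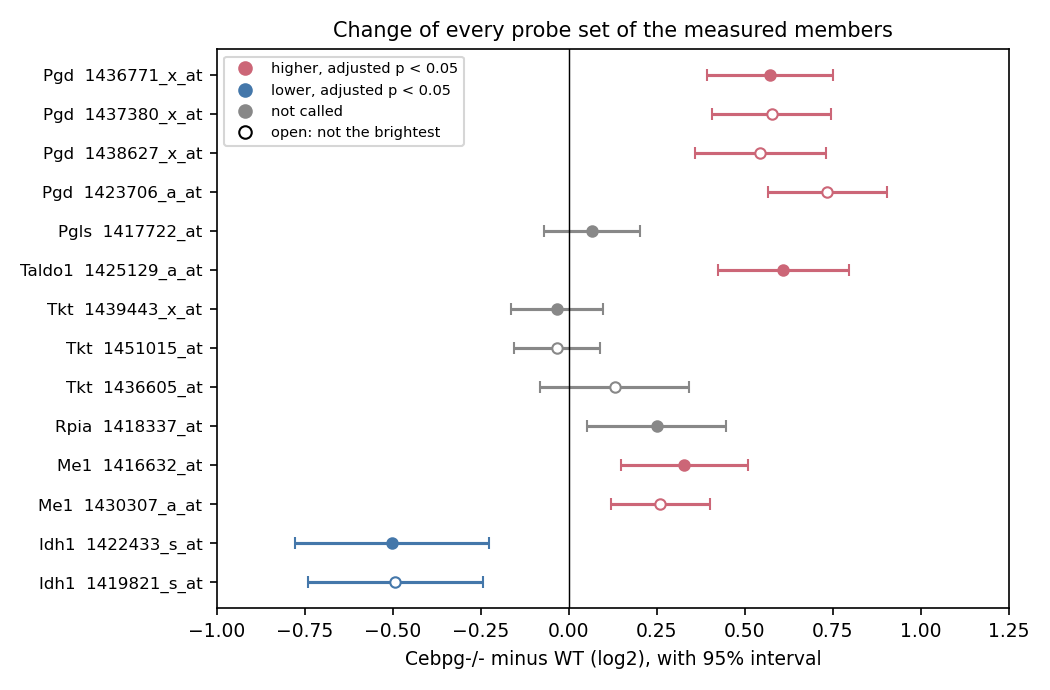
Change of each of the 14 probe sets (Cebpg-/- minus WT, log2, point with 95% interval from limma); filled points are the brightest probe set of a gene. All 4 Pgd, both Me1 and both Idh1 probe sets are called in 1 direction per gene, and no Tkt probe set is called.

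Pgls, the 6-phosphogluconolactonase that works just before Pgd, read 8.01, 7.94, 8.09 and 8.06 in WT and 8.19, 8.08, 8.09 and 8.01 in Cebpg-/-. The ranges overlapped in part, with Cebpg-/- replicate 1 above every WT array and WT replicate 2 below every Cebpg-/- array. The change was 0.07 with a 95% interval of -0.07 to 0.20 (limma, adjusted p = 0.522), so a rise of the size seen for Pgd lies outside the interval.

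In the non-oxidative branch the strongest change was that of Taldo1, transaldolase, which moves a 3-carbon unit between sugar phosphates. Its single probe set read 8.75, 8.73, 8.63 and 8.59 in WT and 9.45, 9.12, 9.18 and 9.39 in Cebpg-/-, with a gap between the groups. It rose 1.53-fold (95% interval 1.34 to 1.74), from 8.67 ± 0.08 to 9.28 ± 0.16 (SD, n = 4; limma, adjusted p = 0.00231).

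Tkt, transketolase, which works beside Taldo1 and moves 2-carbon units, read 10.81, 10.82, 10.76 and 10.66 in WT and 10.72, 10.76, 10.67 and 10.77 in Cebpg-/-. Its change was -0.03 with a 95% interval of -0.16 to 0.10 (limma, adjusted p = 0.746). Its second probe set gave -0.03 and another, dim one, at 2.97 ± 0.19 in WT, gave 0.13; neither passed. Rpia, the isomerase that makes ribose 5-phosphate, read 5.75, 5.85, 6.01 and 5.61 in WT and 6.03, 6.12, 6.13 and 5.93 in Cebpg-/-. WT replicate 3 lay above Cebpg-/- replicate 4, and the change of 0.25 did not pass (limma, adjusted p = 0.0937). Without WT replicate 3 Rpia passed, at 0.32 (adjusted p = 0.0453), and with array medians subtracted at 0.28 (0.0473).

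Me1, the cytosolic malic enzyme, read 7.89, 7.83, 8.13 and 7.97 in WT and 8.33, 8.22, 8.17 and 8.42 in Cebpg-/-. The groups were separated by a narrow gap between WT replicate 3 and Cebpg-/- replicate 3. Me1 rose 1.26-fold (95% interval 1.11 to 1.42), from 7.96 ± 0.13 to 8.28 ± 0.11 (SD, n = 4; limma, adjusted p = 0.0275), and its second probe set rose by 0.26 (adjusted p = 0.0358 over all probe sets). Me1 no longer passed when WT replicate 1 (adjusted p = 0.0822) or 2 (0.0618) was left out, nor without Cebpg-/- replicate 1 (0.0787) or 4 (0.0744), with changes of 0.28 to 0.31.

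Idh1, the cytosolic NADP-dependent isocitrate dehydrogenase, moved the other way. Its brighter probe set read 8.37, 8.60, 8.42 and 8.06 in WT and 7.70, 8.09, 7.70 and 7.95 in Cebpg-/-, so that Cebpg-/- replicate 2 lay just above WT replicate 4. It fell to 70.6% of the WT level, from 8.36 ± 0.22 to 7.86 ± 0.19 (SD, n = 4; limma, adjusted p = 0.0271). The other probe set read 7.60, 7.61, 7.29 and 7.17 in WT and 6.77, 7.10, 6.86 and 6.97 in Cebpg-/-, without overlap, and fell by 0.49 on the log2 scale (adjusted p = 0.0276 over all probe sets). Both carry the suffix s_at, which marks probes shared by several transcripts. Idh1 no longer passed when WT replicate 1 (adjusted p = 0.0728), 2 (0.0586) or 3 (0.0714) was left out, nor without Cebpg-/- replicate 1 (0.0813), 3 (0.0803) or 4 (0.0501). The changes in these 6 fits ran from -0.53 to -0.42.

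Members were then compared with each other within arrays, which removes any scaling common to an array. For each of 21 pairs the log2 difference between both genes was taken on every array and tested between genotypes by an exact two-sided permutation test, whose smallest p with 4 against 4 is 0.0286. In 13 pairs the differences of the 2 genotypes did not overlap, at that smallest p (0.0462 after Benjamini-Hochberg over the 21 pairs). The pairs share the same 7 genes, and the test was added after their changes were known. They therefore describe the single-gene results again and are not separate evidence. Pgd rose more than Pgls by 0.51 and more than Tkt by 0.61 on the log2 scale, and Taldo1 rose more than Tkt by 0.64. The rises of Pgd and Taldo1 were each larger than that of Me1, by 0.24 and 0.28. The difference between Pgd and Taldo1 changed by -0.04 (exact permutation p = 0.686), and that between Pgls and Tkt by 0.10 (p = 0.257). The widest parting was between Taldo1 and Idh1, at 1.11: Taldo1 minus Idh1 was 0.31 ± 0.18 in WT and 1.42 ± 0.30 in Cebpg-/- (SD, n = 4).

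RefSeq promoter windows of all 8 members, G6pdx included, were searched for the core of the antioxidant response element, TGACNNNGC, which NRF2 with a small MAF partner is known to bind. The windows (build GRCm38.p6) span 250 bases before to 50 after each start, and were read on both strands. The letters stood in a window of 3 of 8 members (Pgd, Me1 and G6pdx) and of 14.0% of 27025 genes. They are shown for Pgd and Me1, with the matching letters in capitals; 100 bases before the Taldo1 start are shown because that member rose and its window held no match.
Pgd, second of its RefSeq starts, chr4:149166051-149166099, minus strand: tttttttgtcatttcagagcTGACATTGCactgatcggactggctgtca
Me1, chr9:86695892-86695940, minus strand: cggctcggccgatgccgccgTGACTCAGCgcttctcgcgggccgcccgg
Taldo1, chr7:141392060-141392159, plus strand: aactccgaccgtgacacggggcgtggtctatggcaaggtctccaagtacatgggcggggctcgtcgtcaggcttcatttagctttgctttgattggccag

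The Me1 match begins 6 bases before the start and contains the AP-1 letters TGANTCA, found in 8.97% of genes. A second Me1 window, of another RefSeq start, held neither. The Pgd match begins at base 4 of the transcript, so it is not upstream sequence. Its start lies downstream of the other Pgd start on the minus strand, and the window of that other start held none. Pgd is counted among the members with a match through this site alone. Whether the second Pgd start has a promoter of its own was not tested. No member window held TGACGTNA, TGATGNAA or CACGTG, which stood in 3.36%, 4.51% and 8.09% of genes. A match describes letters only, and its absence speaks only of these windows.

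MEF cultures can hold blood-derived cells, and leukocyte genes had higher means in Cebpg-/-, though unevenly between arrays. Of 18 markers on a leukocyte list all had a higher mean, and 1 was called (Cd14), where 8.62% of all genes were called higher. None was separated between the genotypes, and 14 had an unadjusted p under 0.05. At that unadjusted threshold 3184 of all 18193 genes were higher and 1977 lower. The markers moved together across arrays, so they are not 18 separate observations. Their mean on WT replicates 1 to 4 was 3.58, 5.33, 5.29 and 5.43, and on Cebpg-/- replicates 1 to 4 it was 7.51, 4.84, 6.77 and 6.41. The pan-leukocyte gene Ptprc read 3.34 ± 1.09 and 4.70 ± 1.27, and the macrophage lysozyme Lyz2 8.61 ± 1.23 and 10.61 ± 1.05 (SD, n = 4). Cebpg-/- replicate 2, whose marker mean lay below those of WT replicates 2 to 4, read 10.01 for Pgd, 9.12 for Taldo1 and 8.22 for Me1, each above every WT array. The same array had the lowest Pgd and Taldo1 and the highest Idh1 of its group. In bulk RNA, more cells of a type and more RNA per cell cannot be told apart.

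With the marker mean as a covariate the change of Taldo1 was 0.55 (limma, adjusted p = 0.0406) and that of Pgd 0.45 (0.0406), and 1.35% of all genes were called higher and 0.649% lower. Me1 at 0.28 (adjusted p = 0.250) and Idh1 at -0.35 (0.296) no longer passed. Leaving out both arrays of replicate 1, which hold the lowest and the highest marker mean, gave 0.58 for Taldo1 (adjusted p = 0.0218) and 0.51 for Pgd (0.0362). Me1 was then at 0.29 (0.186) and Idh1 at -0.45 (0.174).

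**Figure D3:**
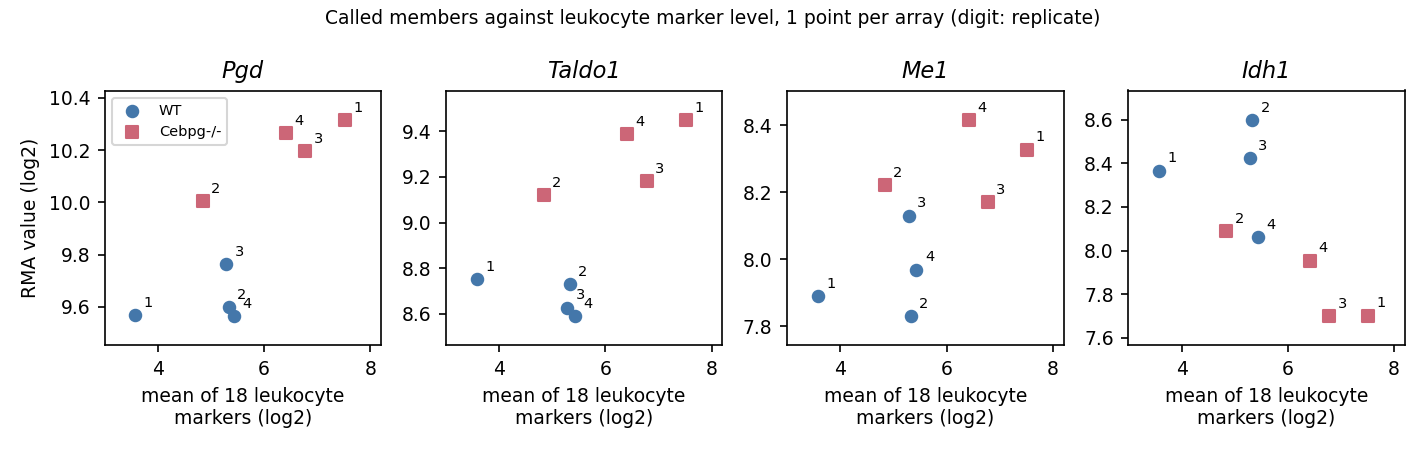
RMA value (log2) of the 4 called members against the mean of 18 leukocyte markers (log2), 1 point per array, digits giving the replicate. At marker means of 4.84 to 5.43 Cebpg-/- replicate 2 lies above WT replicates 2 to 4 for Pgd, Taldo1 and Me1, and within their range for Idh1.

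The labelled cell type was checked by 10 fibroblast markers, of which Vim (vimentin; 12.44 ± 0.05 in WT and 12.46 ± 0.02 in Cebpg-/-) and Col1a2 (12.69 ± 0.06 and 12.25 ± 0.13) were near the top of the scale. Others were lower on the scale, such as Pdgfra (6.74 ± 0.74 and 6.59 ± 0.61) and Dcn (6.87 ± 0.54 and 6.86 ± 0.24). Of the 10, 4 fell (Col1a1, Col1a2, Col3a1 and Pdgfrb) and none rose, where 3.99% of all genes were called lower and 8.62% higher. At an unadjusted p under 0.05, 1 was higher, Lum (3.59 ± 0.73 and 4.66 ± 0.70). Other marker lists gave mean values per array between 1.83 and 5.24. Their counts of calls stand beside the same shares of all genes. Of 6 endothelial markers 1 rose (Esam), of 5 epithelial markers 1 rose (Krt19) and 1 fell (Epcam), and of 4 adipocyte markers 1 rose (Lpl). Of 4 erythroid and 4 muscle markers none was called by limma, with 2 and 1 at an unadjusted p under 0.05. Of 3 Cebpg probe sets 1 fell, from 6.32 ± 0.07 to 5.53 ± 0.12 (limma, adjusted p = 0.000593 over all probe sets). The brightest read 6.78 ± 0.16 in WT and 6.60 ± 0.11 in Cebpg-/- (0.275), and a dim one read 2.80 ± 0.14 and 3.05 ± 0.10 (0.0942), higher on every Cebpg-/- array than on any WT array; neither passed. The position of the deletion relative to these probes is not given in the sources used here.

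Among other genes of the pentose phosphate pathway, 2 of 15 measured rose and none fell, with 3 higher and 0 lower at an unadjusted p under 0.05. Over all genes 8.62% were called higher and 3.99% lower, the shares to set beside this count and those of the lists below. At the unadjusted threshold 3184 of 18193 genes were higher and 1977 lower. Prps2, which turns ribose 5-phosphate into the nucleotide precursor PRPP, rose from 6.42 ± 0.09 to 6.89 ± 0.15 (limma, adjusted p = 0.00663). Tigar, a phosphatase that steers sugar towards the pathway, rose from 4.04 ± 0.10 to 4.34 ± 0.12 (0.0323). Rpe, the epimerase of the non-oxidative branch, read 7.64 ± 0.07 and 7.75 ± 0.01 (0.209), and H6pd, which makes NADPH inside the endoplasmic reticulum, 6.30 ± 0.14 and 6.31 ± 0.09 (0.979). The list median was 0.11. The count of rises was 1 without WT replicate 1 or 3 or Cebpg-/- replicate 1 or 3. Over the 18 alternatives it ran from 0 to 3, and it was 1 with quantile normalization or with a gene's probe sets averaged. It was 0 with the leukocyte covariate or without both arrays of replicate 1.

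Other genes listed with NADPH supply moved in both directions: of 14 measured, 4 rose and 4 fell. Most are mitochondrial or of folate metabolism, and some encode enzymes that can use NAD in place of NADP. The largest falls were those of the mitochondrial folate enzymes Aldh1l2 and Mthfd2. Aldh1l2 went from 8.64 ± 0.05 to 6.76 ± 0.38 (limma, adjusted p = 0.000213) and Mthfd2 from 9.42 ± 0.11 to 8.29 ± 0.26 (0.000639). Other mitochondrial folate enzymes did not pass, Mthfd1l at -0.19 (0.237) and Mthfd2l at 0.01 (0.908). Idh2, the mitochondrial counterpart of Idh1, also fell, from 7.75 ± 0.09 to 7.20 ± 0.25 (0.0129). The fourth was Me3, a dim probe set at 1.60 ± 0.07 and 1.38 ± 0.04 (0.0326), and 3 were lower when dim probe sets were left out. Glud1 (glutamate dehydrogenase) rose by 0.37 and Me2, a mitochondrial malic enzyme, by 0.34. The NAD kinases, which make NADP from NAD, rose as well, Nadk2 by 0.47 and Nadk by 0.25. With the leukocyte covariate none of this list was called higher and 2 lower, and without both arrays of replicate 1 these counts were 1 and 2.

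Among neighbouring carbon pathways, of 15 genes of glucose entry and early glycolysis 3 rose and none fell, with 1 lower at an unadjusted p under 0.05: Pfkfb3, which raises the activator of phosphofructokinase, by 1.14, and the glucose transporters Slc2a3 by 1.20 and Slc2a1 by 0.56. Without both arrays of replicate 1 the count was 1. Hexokinases Hk1 and Hk2 did not pass, at 0.27 and -0.02. Of 14 genes of the citrate and malate shuttle 2 rose (Slc25a10 by 0.22 and Idh3b by 0.19) and none fell, with 1 lower at an unadjusted p under 0.05. Over all genes 8.62% were called higher. The count of rises in the shuttle list was 0 when any single array other than WT replicate 2 was left out, and 1 gene was lower without WT replicate 4. With quantile normalization no shuttle gene was higher and 1 was lower. The count of rises was also 0 with a gene's probe sets averaged or with the leukocyte covariate. Over the 18 alternatives it ran from 0 to 3.

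Enzymes that use NADPH were counted in 2 lists. Of 15 antioxidant and detoxifying users 8 rose and none fell, also at an unadjusted p under 0.05, with a list median of 0.26. Blvrb (biliverdin reductase B) rose by 1.44, Ptgr1 (prostaglandin reductase 1) by 0.84, Cbr3 (a carbonyl reductase) by 1.17 and Txnrd1 (thioredoxin reductase 1) by 0.71. Of 19 biosynthetic enzymes that draw on NADPH or NADH 11 fell and 1 rose (Kdsr), with a list median of -0.38. Aldh18a1 of proline synthesis fell by 0.96, the desaturase Scd2 by 0.96, and the sterol enzymes Msmo1 and Sqle by 0.72 and 0.77. The 1 rise became 2 without WT replicate 4 or Cebpg-/- replicate 2. With the leukocyte covariate the counts were 5 higher antioxidant users and 4 lower biosynthetic ones, and without both arrays of replicate 1 there were 7 lower biosynthetic ones. Genes of both lists were known to move from earlier results of these data, so these counts are a description.

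**Figure D4:**
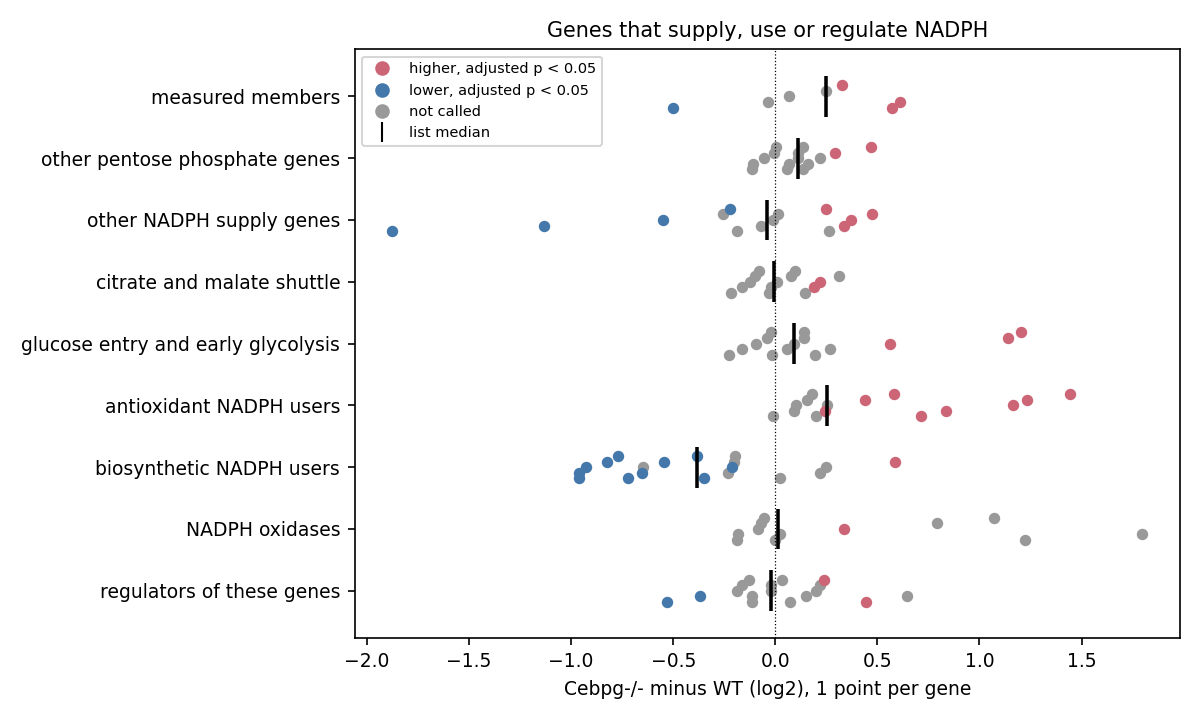
Change of each gene (Cebpg-/- minus WT, log2) in the member set and 8 related lists, with the list median as a bar; the vertical offset within a row only separates points. Antioxidant users lie mostly to the right, biosynthetic users mostly to the left, and the members on both sides with a median of 0.25.

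Of 17 measured regulators of these genes 2 rose and 2 fell, where 8.62% of all genes were higher and 3.99% lower. Nfe2l2, which encodes NRF2, rose from 7.92 ± 0.07 to 8.16 ± 0.02 (SD, n = 4; limma, adjusted p = 0.0210), and Maff, a small MAF, rose by 0.44. Bach1, which competes with NRF2 for its sites, fell from 7.88 ± 0.06 to 7.51 ± 0.08 (0.00565), and Srebf2, of sterol control, fell from 6.47 ± 0.09 to 5.94 ± 0.14 (0.00343). Keap1, the inhibitor of NRF2, read 6.34 ± 0.04 and 6.50 ± 0.05 (0.0911), and Srebf1 7.14 ± 0.10 and 7.17 ± 0.04 (0.791). The 2 rises became 1 without WT replicate 1 or 3 or Cebpg-/- replicate 3 or 4. With the probe sets of each gene averaged, 1 regulator was higher and 1 lower, so these counts depend on the choice of probe set. With the leukocyte covariate 1 regulator was higher and none lower, and without both arrays of replicate 1 none was higher.

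The genes whose profile over the 8 arrays was nearest to that of each called member were found by the root mean square difference of mean-centred log2 values. Nearest to Taldo1 were Slc30a1 (a zinc exporter) at 0.056, Fbxo33 at 0.060 and Akr1b8 (an aldo-keto reductase that uses NADPH) at 0.064, with changes of 0.61, 0.58 and 0.58. Nearest to Pgd were Pfn2, Rnf24 and Slc35d1 at 0.065 to 0.066. Nearest to Me1 were Pgm1 (phosphoglucomutase 1), Axl and Pip5k1a at 0.054 to 0.058. Nearest to Idh1 were Fam131b, Gpc6 and Elovl6 (a fatty acid elongase) at 0.047 to 0.061, with changes of -0.45, -0.49 and -0.46. The Elovl6 and Fam131b changes did not pass (limma, adjusted p = 0.0507 and 0.0572), nor did that of Axl (0.0612).

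**Figure D5:**
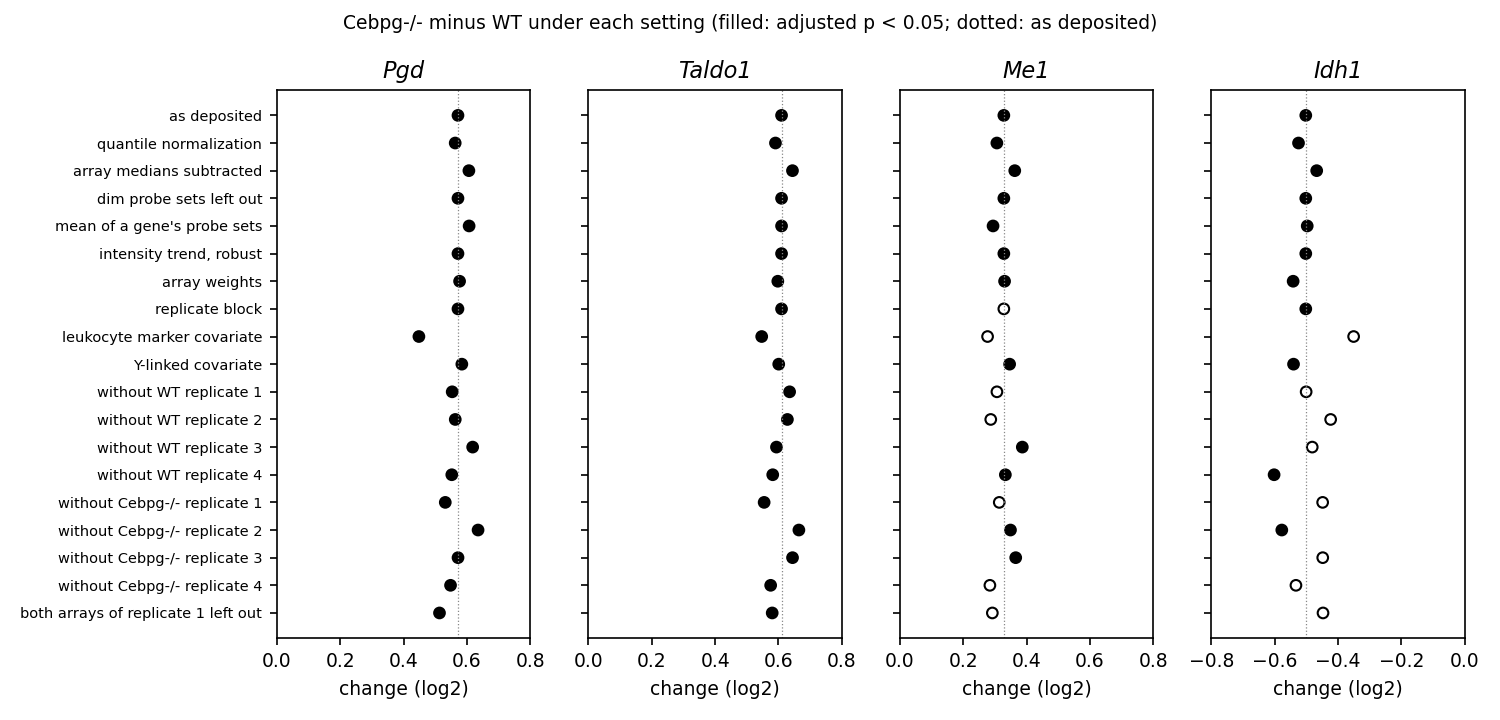
Change (log2) of the 4 called members with the deposited values and under 18 alternatives, filled where the adjusted p is under 0.05. Pgd and Taldo1 stay filled in all 18, Me1 in 11 and Idh1 in 10, and no change turns its direction.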

How the data were processed

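Total RNA of 8 cultures was labelled from 1 µg by an oligo(dT) primer, per the labels' protocols. The deposited log2 values, 1 per probe set and array, were made by the authors using RMA (submitters' processing notes); settings and genome build are not given here. RMA compresses changes of dim probe sets. Of 45101 probe sets 64 controls were left out. Probe sets were named by the platform annotation, with symbols updated by Entrez number (RefSeq, GRCm38.p6); 34945 name 1 gene. The brightest probe set over all arrays stands for a gene. limma 3.58.1 (R 4.3.3) was run on all 45037 probe sets (no trend, genotype only, threshold 0.05), after a test on simulated data. Pairs of members were tested with SciPy 1.17.1. The named genes are the members, up to 4 called genes with the lowest p per list (at most 2 where none passed), Cebpg, and the 3 nearest profiles per called member; others named were chosen after their values were seen. List genes with no probe set of their own (such as G6pdx) were not analysed here. The members and lists were chosen with earlier results of these data known; the pair tests were added later. The alternatives were quantile normalization, array medians, averaging the probe sets of a gene, a filter (over 2.73 on at least 4 arrays), an intensity trend, array weights, the replicate block, leukocyte and Y-linked covariates, and leaving out arrays.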

Additional observations from a re-analysis of the deposited data

Results flagged for a closer look

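In 62 groups of 4 arrays examined (the 14 member probe sets and 17 list means in each genotype), 3 held a value far from the other 3 by Dixon's criterion, and about 1 in 20 groups is marked so by chance. The brightest Pgd probe set read 9.76 on WT replicate 3, where the other WT arrays read 9.57 to 9.60. Leaving this array out gave a Pgd change of 0.62. The mean of the leukocyte markers was 3.58 on WT replicate 1, where the other WT arrays lay between 5.29 and 5.43. The mean of 4 adipocyte markers was 5.24 on Cebpg-/- replicate 2, where the others lay between 4.07 and 4.15, and Adipoq read 4.06 there and 1.54 to 1.81 on the others.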

How the results depend on the processing

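Pgd and Taldo1 kept their call in all 18 alternatives, with changes of 0.45 to 0.64 and 0.55 to 0.66. Rpia passed with array medians subtracted (0.28), and its change without 1 array ran from 0.19 to 0.32. Me1 did not pass with the leukocyte covariate (0.28) or without both arrays of replicate 1 (0.29), and ran from 0.28 to 0.39 without 1 array. Idh1 did not pass with that covariate (-0.35) or without both arrays (-0.45), and ran from -0.60 to -0.42 without 1 array. Members called lower were 0 in these fits and 0 to 1 without 1 array; over probe sets 7 were higher and 2 lower. The losses without an array come with fewer samples; the cause was not tested otherwise. Pgls and Tkt passed in none of the 18. Replicate numbers did not pair the samples: same-numbered deviations correlated at -0.36, 0.15, 0.02 and 0.05 over 18193 genes. With the replicate block Me1 kept 0.33 and did not pass (adjusted p = 0.0635), 2 members were called higher, and 978 and 491 genes in all were higher and lower, against 1569 and 726 without it. Over all genes the counts also moved to 245 and 118 with the leukocyte covariate, 347 and 182 without both arrays of replicate 1, and 780 and 422 without WT replicate 1. Over 18 alternatives the antioxidant users called higher numbered 5 to 9 and the biosynthetic users called lower 4 to 13. Dim probe sets, such as the third of Tkt, limit what can be seen.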

Other observations

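Genes of the NADPH oxidases and nitric oxide synthases, which spend NADPH on making superoxide or nitric oxide, were also measured. Of 12, 1 rose, Cyba, the membrane subunit of the oxidases, from 8.59 ± 0.10 to 8.93 ± 0.20 (SD, n = 4; limma, adjusted p = 0.0497). None fell, also at an unadjusted p under 0.05, and over all genes 8.62% were called higher. Without Cebpg-/- replicate 2 there were 5 higher, and without any other array 0. The count was also 0 with the leukocyte covariate or with quantile normalization, and 3 of the 18 alternatives kept it at 1. Cybb, the catalytic subunit of phagocytes, read 2.34, 3.91, 3.56 and 4.00 on WT replicates 1 to 4 and 6.56, 3.24, 5.89 and 5.29 on Cebpg-/- replicates 1 to 4, and did not pass (adjusted p = 0.0916). Nox4, the oxidase of fibroblasts, read 5.25 ± 0.47 and 5.18 ± 0.16 (adjusted p = 0.850).

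Sex-linked genes differed widely between arrays of the same genotype; of 4 measured none was called by limma, nor had an unadjusted p under 0.05. Xist read 7.81, 8.91, 3.07 and 2.96 on WT replicates 1 to 4 and 8.63, 8.65, 3.05 and 2.77 on Cebpg-/- replicates 1 to 4. The Y-linked gene Eif2s3y read 6.26, 1.64, 6.52 and 7.02, and 1.65, 1.82, 6.90 and 6.97. WT replicate 1 was the only array on which both genes were high. With a covariate for the 3 Y-linked genes Pgd (0.58), Taldo1 (0.60), Me1 (0.35) and Idh1 (-0.54) kept their calls.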
